A study of Mus musculus with 2 samples.

Results

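A set of 10 early-response genes that restrain signalling or shorten the life of mRNAs was followed in sorted microglia of the sham-operated mouse brain. They were 3 phosphatases of MAP kinases (Dusp1, Dusp2, Dusp6), 3 members of the tristetraprolin (TTP) family (Zfp36, Zfp36l1, Zfp36l2), 2 BTG genes (Btg1, Btg2) and 2 immediate early response genes (Ier2, Ier3). They were set as a list of gene names, with earlier results of these data known, and make up 10 of the 53801 genes listed in each library. Each member reached 10 counts in each library, a minimum that 13445 genes passed in both, so no member was lost to a filter on low counts.

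The series measured mRNA of microglia by bulk RNA-seq in a study of ischemic stroke by middle cerebral artery occlusion (MCAO), and the counts analysed here were those of its sham microglia group, 2 libraries from 1 mouse each. Both mice carried Cx3cr1 CreER/wt on a C57BL/6 background, in which 1 Cx3cr1 allele drives a tamoxifen-inducible Cre recombinase with no floxed gene named in the labels, and both received tamoxifen at 75 mg/kg/day for 4 days. Per the labels they were males of 8 to 10 weeks, while the methods of the study give another age range and both sexes, and the titles name sham surgery where the treatment is labelled none. Cells were taken 3 days after sham surgery from the dissociated left hemisphere, by a gate for CD11b and low CD45 that left out cells with CD11c or Ly6G. There was 1 group, so no condition could be compared, and every difference below is between 2 mice of that group, without a test.

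The sum of counts over genes was 23381026 for sham library 1 and 41142609 for sham library 2. Levels are counts per 1000000 counts on genes (CPM). Intervals cover counting error only, since copies made by amplification are not separate molecules. The spread between the libraries over all genes, as edgeR's common biological coefficient of variation, was 0.479, so a log2 ratio between 2 such libraries has an SD of 0.98, a 1.97-fold difference. The 10 microglia markers summed to 37708 CPM in library 1 and 43066 in library 2, none of them more than 2-fold higher in library 2 and 6 of 10 higher there. Markers of immature neutrophils summed to 1699 and 31527 CPM, with 10 of 10 higher in library 2, and those of mature neutrophils to 3523 and 31667 CPM, with 8 of 9 higher. Markers of choroid plexus (22.6 and 364 CPM) and of basophils and mast cells (0.0855 and 161 CPM) were also higher in library 2. So were those of erythroid cells (0.214 and 13.5 CPM) and NK cells (0 and 0.559 CPM). B cell markers summed to 52.6 and 57.4 CPM, with 4 of 4 higher. T cell markers summed to 0.171 and 2.82 CPM, mostly from Cd3d (3 and 109 counts). Only 2 of these 4 were higher in library 2, with Trac at 1 and 0 counts and Cd3e at 0 in both. Markers of border macrophages were lower there (437 and 214 CPM, 0 of 5 higher), as was the microglia marker Sall1 (337 and 146 CPM). In bulk RNA, fewer cells of a type and less RNA per cell cannot be told apart. The part of these other cells in the members' levels was not tested.

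MAP kinases carry signals from receptors of cytokines, growth factors and pathogens to transcription factors, and they are switched off when dual-specificity phosphatases remove phosphate from both a threonine and a tyrosine. The genes of several such phosphatases are induced by the pathway they shut down. TTP and its relatives bind AU-rich elements in the 3′ untranslated region (UTR) of short-lived mRNAs, among them cytokine mRNAs, and recruit the CCR4-NOT complex, which removes the poly(A) tail. BTG proteins also bind this complex and are known for restraint of cell division. The Ier genes are switched on within minutes of a stimulus without new protein synthesis, and their mRNAs are as a rule short-lived.

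The 3′ UTRs of the members are shown first because the members include both the proteins that read AU-rich elements and mRNAs that carry them. Motifs were counted on the sense strand of the longest protein-coding transcript of each gene in GENCODE M21, in DNA letters, with overlapping copies counted. The pentamer searched was ATTTA and the heptamer, which holds the pentamer, was TATTTAT. One window of 30 bases is given for each member with a copy, from GRCm38 and in the direction of transcription, with capitals marking the heptamer where the 3′ UTR has one and the pentamer elsewhere. The windows lie in the 3′ UTRs of Dusp1 at chr17:26506159-26506188 (minus strand), Dusp2 at chr2:127338303-127338332 (plus), Dusp6 at chr10:99267419-99267448 (plus), Zfp36 at chr7:28376958-28376987 (minus), Zfp36l1 at chr12:80108422-80108451 (minus), Zfp36l2 at chr17:84184914-84184943 (minus), Btg1 at chr10:96618723-96618752 (plus), Btg2 at chr1:134077249-134077278 (minus) and Ier3 at chr17:35822484-35822513 (plus).
Dusp1: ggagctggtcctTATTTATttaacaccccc
Dusp2: aacagcactttaTATTTATatagaacattg
Dusp6: gttttgagctggaATTTAttataagaatgt
Zfp36: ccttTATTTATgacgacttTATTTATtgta
Zfp36l1: cttatcaaaacgTATTTATtgccaaactat
Zfp36l2: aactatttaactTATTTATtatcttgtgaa
Btg1: gatggattatggaATTTAaaccatgtcaca
Btg2: aaaatgaagagcTATTTATacatgtttttt
Ier3: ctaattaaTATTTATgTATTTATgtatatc

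The pentamer was present in the 3′ UTR of 9 of 10 members (90%), against 69.4% of the 11395 counted coding genes with a 3′ UTR. The heptamer was present in 7 of 10 (70%), against 29.5%. Ier2 had neither motif in its 755 bases, Dusp6 had 1 pentamer in 1189 bases, and Btg1 had 11 pentamers in 4166 bases but no heptamer. At least 3 heptamers, a number chosen after the counts were seen, were found in 5 of 10 members (50%) and in 3.77% of the counted coding genes. These 5 were Dusp1, Ier3 and the whole TTP family, so the mRNAs of the AU-rich element readers themselves carried the heptamer. Ier3 had the most heptamers, 4 in 613 bases, and the most pentamers per length, 8.16 per 1000 bases. The median over the members was 3.31 pentamers per 1000 bases of 3′ UTR, against 1.30 over the counted coding genes.

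**Figure D1:**
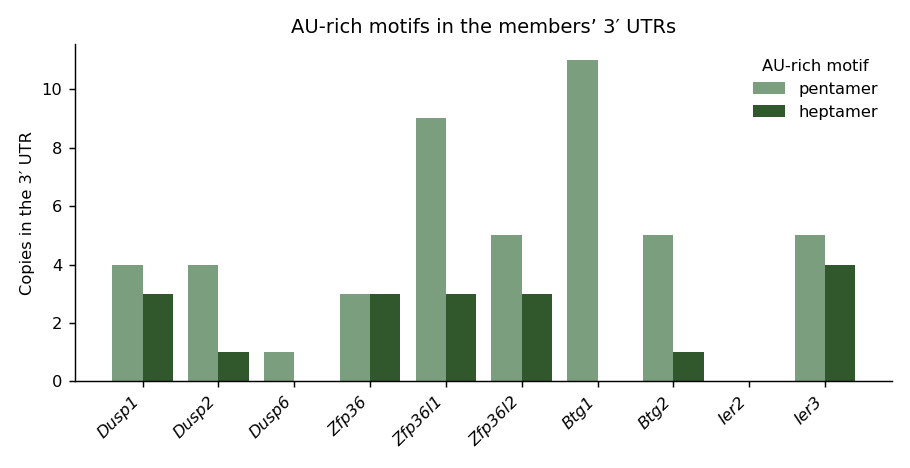
Copies of the AU-rich pentamer (light bars) and of the heptamer that holds it (dark bars) in the 3′ UTR of each member, counted in its longest coding transcript. Btg1 has 11 pentamers and no heptamer, Ier3 has 4 heptamers, and Ier2 has neither.

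The members were compact genes. Their median span was 3710.5 bases from start to end, against 23684.5 bases for the counted coding genes, and their median number of exons was 2 against 9. Ier2 was a gene of a single exon, and Dusp1 and Dusp2 had the most exons, 4 each. Transcripts ranged from 1131 bases in Ier3 to 5001 bases in Btg1, with a median of 2766.5 against 3064.5. Coding sequences were rich in G and C, with a median of 61.7% against 52.6%, from 53.5% in Btg1 to 71.0% in Zfp36l2. These gene models are descriptions of the members and used no count. The genes set against them were those that reached the count minimum.

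Promoters were taken from RefSeq (GRCm38.p6), from 250 bases before to 50 after the start, and 8 of 10 members had one. The cAMP response element TGACGTCA, bound by CREB and its relatives, was searched on both strands. It was found in the promoters of 2 of these 8 members, Dusp1 and Btg2, and in 1.79% of all 32851 promoters. These 2 promoters had a GC content of 67.0% and 72.0%, against a median of 52.7% over all promoters. The background was not matched for GC content. The element lay at -143 to -136 from the start of Dusp1 and at -166 to -159 from that of Btg2. Both are shown because they are the members that held the element, with the element in capitals, at chr17:26508597-26508626 and chr1:134079303-134079332, each read on the minus strand.
Dusp1: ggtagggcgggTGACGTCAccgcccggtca
Btg2: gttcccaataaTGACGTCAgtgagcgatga

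A CArG box, the site of serum response factor, was found at -58 to -49 in the promoter of Zfp36, which 1.63% of all promoters also held. An NF-kB motif was found on the opposite strand at -92 to -83 of Ier3, and 4.51% of all promoters held one. The letters TATAAA were found in Zfp36l1 and Btg1, against 13.6% of all promoters. The AP-1 motif TGACTCA was in none of the 8 members, against 5.20%. A match is a description of the letters and not a shown site of binding, and none of these values says anything of the factors.

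The 10 members together took 0.793% of the counts on genes in library 1 and 1.01% in library 2. Their summed level was 7928 CPM and 10085 CPM, a mean of 9007 ± 1525 CPM (SD, n = 2 libraries). Most of it came from Dusp1, Btg2 and Zfp36. Among all genes in order of counts, these stood at ranks 52, 56 and 43 in library 1 and 27, 47 and 58 in library 2. Dusp2, with the lowest level, stood at ranks 6707 and 10704. The study acknowledges that the warm enzymatic digestion used to free the cells may itself alter microglial transcription. All levels here are therefore those of isolated cells, and the part of this step in them was not tested.

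Dusp1 encodes a nuclear phosphatase that acts mainly on p38 and JNK. The gene (ENSMUSG00000024190, GRCm38 chr17:26505590-26508519, minus strand) had 41624 counts or 1780 CPM in library 1 and 150911 counts or 3668 CPM in library 2, a mean of 2724 ± 1335 CPM (SD, n = 2). The level was 2.06-fold higher in library 2, a log2 ratio of 1.04 (95% counting interval 1.03 to 1.06). The interval covers neither amplification nor the choice of scaling. The log2 ratio was 1.27 with TMM scaling and 1.31 with the size factors of DESeq2. In CPM the ratio was close to 1 SD of the spread between libraries, and 30.3% of the counted genes differed by as much. Dusp1 was the member with the highest mean level.

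Dusp6 encodes a cytoplasmic phosphatase that acts on ERK and is itself an ERK target gene. It had 17057 counts or 730 CPM in library 1 and 39622 counts or 963 CPM in library 2 (ENSMUSG00000019960, chr10:99263231-99267489, plus strand), a mean of 846 ± 165 CPM (SD, n = 2). The log2 ratio of 0.40 was smaller than that of 63.7% of the counted genes. In CPM, Dusp6 thus differed little between the mice against the general spread. Its log2 ratio was 0.63 with TMM scaling and 0.66 with the size factors of DESeq2.

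Dusp2 encodes a nuclear phosphatase best known from activated leukocytes. It had 468 counts or 20.02 CPM in library 1 (95% counting interval 18.2 to 21.9) and 82 counts or 1.99 CPM in library 2 (1.59 to 2.47; ENSMUSG00000027368, chr2:127336159-127338376, plus strand). The mean of 11.005 ± 12.7 CPM (SD, n = 2) had an SD larger than itself. The level was 10.0-fold lower in library 2, a log2 ratio of -3.33 (-3.68 to -2.99), and 0.952% of the counted genes differed by as much in either direction. This was the widest difference of any member, in the direction opposite to that of Dusp1. With 1 mouse on each side, no cause of the difference could be tested.

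Within the phosphatases, Dusp1 took 76.6% of the summed level per length (CPM per 1000 bases of transcript) in library 1 and 84.2% in library 2, and Dusp2 took 1.06% and 0.0563%. Not corrected for length, the 3 phosphatases summed to 2530 and 4633 CPM. The order Dusp1, Dusp6, Dusp2 held in both libraries.

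Zfp36 encodes TTP itself, the founding reader of AU-rich elements. It had 47873 counts or 2048 CPM in library 1 and 78354 counts or 1904 CPM in library 2 (ENSMUSG00000044786, chr7:28376784-28380253, minus strand), a mean of 1976 ± 101 CPM (SD, n = 2). The log2 ratio of -0.10 was the smallest of any member in CPM, and 90.2% of the counted genes differed by more. Its sign turned under other scalings (0.13 with TMM, 0.16 with the size factors of DESeq2), so no direction is given for it.

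Zfp36l1, a relative known from B and T cell development and vessels, had 1936 counts or 82.8 CPM in library 1 and 2462 counts or 59.8 CPM in library 2 (ENSMUSG00000021127, chr12:80107754-80113013, minus strand), a mean of 71.3 ± 16.2 CPM (SD, n = 2). The log2 ratio was -0.47, and 58.5% of the counted genes differed by as much. Its count is uncertain, because Gm26669 on the opposite strand shares 1672 exon bases with it and the strand setting of the counting is not stated. Of the 2916 stretches of 75 bases in its transcript, 52.3% occur in transcripts of Gm26669, which itself had 18 counts in library 1 and 43 in library 2. The pseudogene Zfp36l1-ps, with 37 shared stretches, had 2 counts and 1.

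Zfp36l2, the other relative, known from lymphocytes, blood stem cells and the oocyte, had 2473 counts or 106 CPM in library 1 and 1312 counts or 31.9 CPM in library 2 (ENSMUSG00000045817, chr17:84183931-84187947, minus strand), a mean of 68.8 ± 52.2 CPM (SD, n = 2). It was 3.32-fold lower in library 2, a log2 ratio of -1.73 (95% counting interval -1.83 to -1.63), a size that 13.2% of the counted genes reached. Shares within the TTP family take the uncertain count of Zfp36l1 as it stands. Zfp36 took 92.7% of the summed level per length in library 1 and 95.9% in library 2. Zfp36l1 took 3.50% and 2.81%, and Zfp36l2 3.79% and 1.27%. The family as a whole summed to 2236 and 1996 CPM, of which Zfp36l2 made up 106 and 31.9 CPM.

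Btg2, a p53 target gene that restrains division, had 40207 counts or 1720 CPM in library 1 and 96901 counts or 2355 CPM in library 2 (ENSMUSG00000020423, chr1:134075170-134079120, minus strand), a mean of 2037 ± 449 CPM (SD, n = 2). Its log2 ratio was 0.45, and 59.6% of the counted genes differed by as much. Btg1, its close relative and a gene of quiescent lymphocytes, differed in the other direction. Btg1 had 8000 counts or 342 CPM in library 1 and 6252 counts or 152 CPM in library 2 (ENSMUSG00000036478, chr10:96617006-96622809, plus strand), a mean of 247 ± 134 CPM (SD, n = 2). It was 2.25-fold lower in library 2, a log2 ratio of -1.17 (95% counting interval -1.22 to -1.12), and 26.1% of the counted genes differed by as much. Btg2 took 90.2% of the summed level per length of the pair in library 1 and 96.6% in library 2.

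Ier2, a nuclear protein of the early serum response, had 21933 counts or 938 CPM in library 1 and 29388 counts or 714 CPM in library 2 (ENSMUSG00000053560, chr8:84661331-84662852, minus strand), a mean of 826 ± 158 CPM (SD, n = 2). Ier3, a gene of stress and survival signalling that NF-kB induces, had 3794 counts or 162 CPM and 9641 counts or 234 CPM (ENSMUSG00000003541, chr17:35821684-35822923, plus strand), a mean of 198 ± 51.0 CPM (SD, n = 2). The log2 ratios were -0.39 for Ier2 and 0.53 for Ier3, sizes that 64.5% and 54.3% of the counted genes reached. The pair thus differed in opposite directions, both within the general spread.

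**Figure D2:**
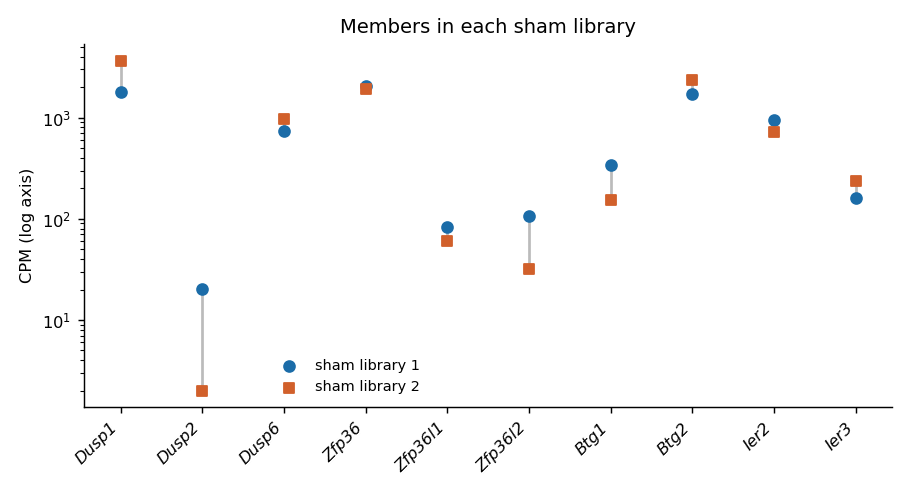
Level of each member (CPM, log axis) in sham library 1 (circles) and sham library 2 (squares), 1 mouse each, with a grey line joining the pair. Dusp2 is at 20.02 CPM in library 1 and at 1.99 CPM in library 2, while the squares and circles of Zfp36 (2048 and 1904 CPM) nearly coincide.

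More than 2-fold differences between the libraries were found for 4 of 10 members (40%), namely Dusp1, Dusp2, Zfp36l2 and Btg1, against a background of 31.7% of the 13445 counted genes. Dusp1 was the single member more than 2-fold higher in library 2, where 5.74% of the counted genes were. Dusp2, Zfp36l2 and Btg1 were more than 2-fold lower there, against 25.9% of the counted genes. With 10 members, 1 gene is 10% of the set, and these shares lie within 1 gene of the background. The median log2 ratio was -0.25 over the members and -0.26 over the counted genes, and the median size regardless of sign was 0.50 and 0.60. The shift of all genes below 0 depended on the scaling, with a median of -0.26 in CPM, -0.03 with TMM and -0.00 with the size factors of DESeq2. The members' median shifted with it, to -0.02 and 0.01.

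The ratio between the libraries followed the length of transcripts over all genes. With the counted genes split by transcript length into 10 bins of equal size, the median log2 ratio was 0.19 in the second bin and -1.09 in the longest, of 6283 bases or more. Btg1, the longest member, lay in the bin from 4748 to 6282 bases, whose median was -0.99, close to its own -1.17. Zfp36l2 lay in the bin from 3353 to 3963 bases, whose median was -0.55. Dusp2 lay in the bin from 1500 to 1941 bases, whose median was 0.16, so its -3.33 was far from genes of like length.

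By GC content of the transcript, the median was -0.59 in the highest of 10 bins, which held Dusp2 and Ier2. Ier2 shared both bins with Dusp2 and had a log2 ratio of -0.39. After subtraction of the median of genes of like GC content and length, 2 of 10 members were past 2-fold, Dusp1 at 1.04 and Dusp2 at -3.17, against 21.4% of the 13439 genes with both features. Zfp36l2 came to -0.75 and Btg1 to -0.56. Only 0.871% of these genes had an adjusted ratio as large as that of Dusp2. What part GC content, length or the neutrophil markers had in the difference of any member was not tested.

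**Figure D3:**
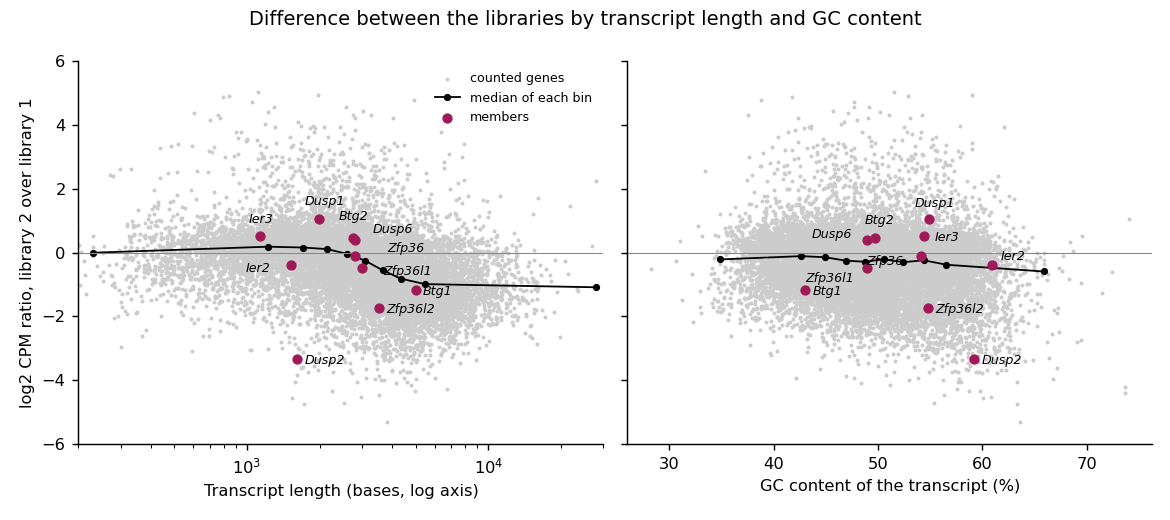
Log2 ratio of CPM (library 2 over library 1) against transcript length (left, log axis) and GC content (right) for the counted genes (grey), with the median of each bin (black line) and the members (purple, named). The line falls to -1.09 for the longest transcripts, Btg1 lies near it, and Dusp2 lies far under it in both panels.

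Levels of different genes were compared per length of transcript, as CPM per 1000 bases (CPM per kilobase). The mean was highest for Dusp1 (1369 ± 671), followed by Btg2 (743 ± 164), Zfp36 (708 ± 36.3), Ier2 (543 ± 104) and Dusp6 (303 ± 59.1 CPM per kilobase; SD, n = 2 for each). Ier3 (175 ± 45.1), Btg1 (49.4 ± 26.9), Zfp36l1 (23.9 ± 5.43), Zfp36l2 (19.5 ± 14.8) and Dusp2 (6.81 ± 7.88 CPM per kilobase) came below them. Of the 9 pairs of neighbours in this order, 6 did not overlap in their values, and Btg2 with Zfp36, Zfp36l1 with Zfp36l2, and Zfp36l2 with Dusp2 did. This holds for the length of the longest transcript and depends on the length used. Btg2 and Zfp36, and likewise Zfp36l1 and Zfp36l2, changed places between the libraries, so neither pair can be ordered on this measure.

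The levels spanned 72.3-fold from Dusp1 to Dusp2 in library 1 and 1495-fold in library 2. Against the median counted coding gene, at 8.18 CPM per kilobase in library 1 and 5.85 in library 2, 9 of 10 members were higher in both libraries. Dusp2 was above this median in library 1 (12.4) and below it in library 2 (1.23 CPM per kilobase), at percentiles 59.8 and 21.5 of the counted coding genes. Dusp1 stood at percentiles 99.6 and 99.7. Among paralogs over full transcript lengths, the level of Zfp36 was 26.5 times that of Zfp36l1 in library 1 and 34.1 times in library 2. Btg2 was at 9.16 and 28.3 times the level of Btg1. Counted over the 1318 bases outside the exons of Gm26669, an alternative chosen after seeing the data, Zfp36l1 would have 62.8 CPM per kilobase in library 1 and 45.4 in library 2, a mean of 54.1. That is below Btg1 in library 1 (68.4) and above it in library 2 (30.4), so Zfp36l1 and Btg1 could then not be ordered. Zfp36l1 would then lie above Zfp36l2 (30.0 and 9.03 CPM per kilobase) in both libraries. The ratio of Zfp36 to Zfp36l1 would be smaller.

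**Figure D4:**
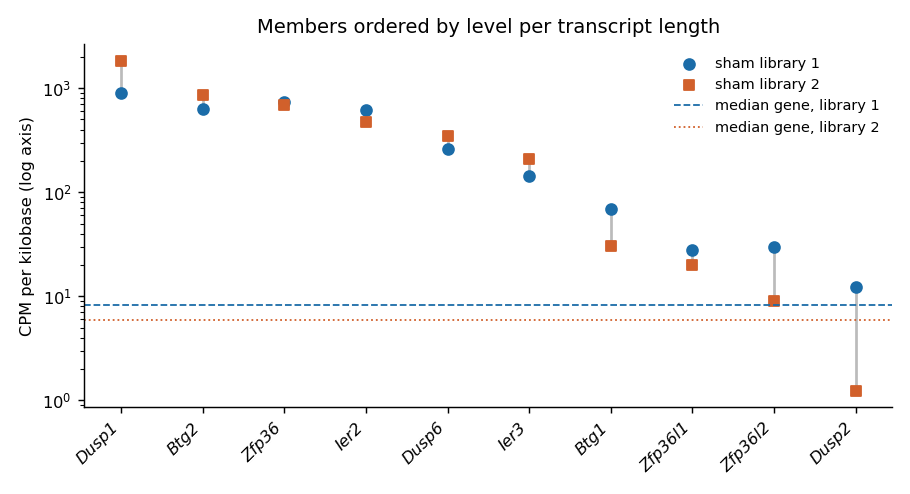
Members in the order of their mean level per transcript length (CPM per kilobase, log axis) in sham library 1 (circles) and sham library 2 (squares), with the median counted coding gene of each library as a dashed and a dotted line. Dusp1 is highest in both libraries, and Dusp2 lies above the line in library 1 (12.4) and below it in library 2 (1.23).

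The other genes of these pathways were read from lists made by function. Highest and lowest in these lists are by mean CPM, which is not corrected for length. Counts past 2-fold are read against 5.74% of the counted genes higher in library 2 and 25.9% lower, and after the adjustment for GC content and length against 21.4% in either direction. Of the 7 other MAP kinase phosphatases, 5 were counted. The highest was Dusp7 at 48.4 ± 27.5 CPM (SD, n = 2), followed by Dusp16 at 13.7 ± 8.96 CPM, while Dusp4 had 6 and 10 counts and Dusp9 had 4 and 2. Per length Dusp7 had a mean of 15.1 CPM per kilobase, against 1369 for Dusp1, 303 for Dusp6 and 6.81 for Dusp2. In library 2, 4 of the 5 were more than 2-fold lower and none higher, with a median log2 ratio of -1.45. After the adjustment 1 of the 5 was past 2-fold, Dusp5 at -2.50 (named after its value was seen), and the median was -0.39, while Dusp2 was at -3.17. Of the 17 MAP kinases and activators, 16 were counted, led by Map2k1 (224 ± 6.23 CPM), which activates ERK, and Mapk14 (202 ± 94.4 CPM), which encodes p38 alpha. Mapk10 had 1 and 10 counts and Mapk12 had 18 in each library. Their median log2 ratio was -0.27, with 1 gene more than 2-fold higher in library 2 and 5 lower. The adjusted median was -0.01, with 1 gene higher and 4 lower.

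Of the 5 other genes of the TTP and BTG families, 3 were counted. Tob2, which encodes an antiproliferative protein that binds the CCR4-NOT complex, stood at 121 CPM in library 1 and at 45.2 in library 2. Tob1, its relative, had 6.59 and 10.5 CPM. Zfp36l3, known from the placenta of rodents, had 0 and 8 counts, and Btg4, known from the oocyte, had 0 and 2. The relative Ier5 stood at 323 CPM in library 1 and at 266 in library 2, which per length (98.5 and 81.1 CPM per kilobase) was below Ier3 and Ier2 in both. Ier5l had 6 and 3 counts.

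All 13 genes of the CCR4-NOT and PAN deadenylases were counted, of which CCR4-NOT is the complex that TTP and BTG proteins bind. Cnot8, a catalytic subunit, was highest with 247 CPM in library 1 and 334 in library 2, and Cnot2 followed with a mean of 129.96 ± 7.66 CPM (SD, n = 2). Pan2 (15.4 ± 7.12 CPM) and Cnot11 (18.2 ± 7.36 CPM) were lowest. The median log2 ratio was -0.07, with 4 of 13 more than 2-fold lower in library 2 and none higher, and 2 lower after the adjustment. Per length, Cnot8 had a mean of 138 CPM per kilobase, below the means of Zfp36 and Btg2 and above those of Btg1, Zfp36l1 and Zfp36l2.

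All 9 genes of decapping and 5′ decay were counted, with Ddx6 (73.5 ± 19.4 CPM) and Edc3 (47.9 ± 15.0 CPM) highest and Patl1 (8.98 ± 4.72 CPM) and Dcp2 (9.61 ± 1.77 CPM) lowest. Their median log2 ratio was -0.90, and 4 of 9 were more than 2-fold lower in library 2. After the adjustment 0 of 9 were past 2-fold, with a median of -0.33. Of the 8 other readers of AU-rich elements or stem-loops, all were counted and 5 were more than 2-fold lower in library 2, with a median of -1.04. After the adjustment 2 of 8 were, with a median of -0.47. Elavl1, which encodes the stabilising reader HuR, was highest with 129 CPM in library 1 and 61.4 in library 2, followed by Tia1 (21.5 ± 5.37 CPM). Zc3h12a, which encodes the nuclease Regnase-1, was lowest in CPM with 13.4 and 1.85, next to Tial1 at 10.7 ± 4.42 CPM. Per length, Elavl1 had a mean of 16.5 CPM per kilobase, against 708 for Zfp36, 23.9 for Zfp36l1 and 19.5 for Zfp36l2.

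Of 13 mRNAs known as TTP targets, 10 were counted. Ccl3 stood at 255 CPM in library 1 and at 423 in library 2, and Il1b had 197 and 389 CPM. Csf2 had 0 counts in both libraries, which allows up to 0.128 CPM and 0.0729 CPM, and Il23a had 3 and 11 counts. Tnf, the target by which TTP became known and named here after its values were seen, had 58.9 and 56.0 CPM, so it differed as little between the mice as Zfp36. The median log2 ratio of the targets was 0.63, with 2 genes more than 2-fold higher in library 2 and 1 lower. The adjusted median was 0.60, with the same numbers past 2-fold. Several of these cytokine genes are also expressed by neutrophils, whose markers were higher in library 2, and the part of these cells was not tested.

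**Figure D5:**
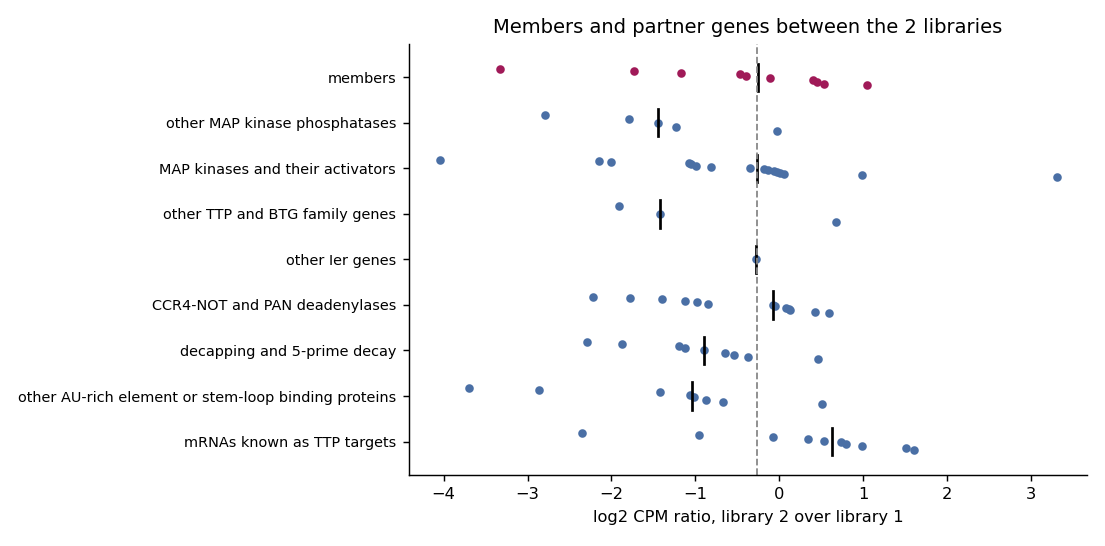
Log2 ratio of CPM (library 2 over library 1) of each counted gene among the members (purple) and the lists of partner genes (blue), with the median of each list (black bar) and that of the counted genes (dashed line, -0.26). The members have their median at -0.25, the other MAP kinase phosphatases at -1.45 and the TTP targets at 0.63.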

How the data were processed

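The deposited values are whole-number counts per Ensembl gene, which the authors made by mapping reads to GRCm38 with HISAT2 and counting with HTSeq, without normalization. The strand setting, annotation release and tool versions are not given in the sources used here. Per the methods of the study, the SMART-Seq HT Kit served for cDNA synthesis. Symbols, transcripts and lengths came from GENCODE M21, and gene bounds, counted from 1, came from the deposited files. Each library was 1 sample of its own and there was 1 group, so no test was run.

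CPM was computed from the sum of counts on genes. A count of 0 allows 3 counts, which is 0.128 CPM in library 1 and 0.0729 in library 2. Ratios have exact 95% binomial intervals. Ratios were also adjusted by the median of genes in the same of 10 bins of GC content and of length (GC content alone for bins under 20 genes). The spread came from edgeR 4.0.16 (common dispersion, intercept only, TMM), with DESeq2 1.42.0 as an alternative, in R 4.3.3, and was tested on simulated data. Other steps used Python 3.11.15, numpy 2.4.6, pandas 2.3.3, scipy 1.17.1 and matplotlib 3.10.9.

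The members and lists were chosen with earlier results of these data known. Genes named were the members, the 2 highest and 2 lowest of each list by mean CPM, and genes that overlap a member or share 75-base stretches with it. Cell type markers, and genes marked as named after their values were seen, came on top. On the opposite strand, Gm44710 shares 125 exon bases with Zfp36 and AC132455.1 shares 105 with Zfp36l2. Of the 75-base stretches of Zfp36, Zfp36l2 and Btg1, 1.07%, 0.897% and 1.58% occur in other genes. Alternatives were scaling by TMM or DESeq2, library totals less the mitochondrial genes, other count minimums, union exon length, the GC content and length adjustment, and leaving out each library.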

Additional observations from a re-analysis of the deposited data

How the results depend on the processing

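No paired analysis was possible because both libraries belong to 1 group. The log2 ratio of Zfp36, -0.10 in CPM, turned to 0.13 with TMM, 0.16 with DESeq2 size factors and 0.073 after the GC content and length adjustment, and the cause was not tested. That adjustment left 2 members past 2-fold instead of 4, with Zfp36l2 at -0.75 and Btg1 at -0.56. TMM (-0.94) and DESeq2 size factors (-0.91) also brought Btg1 within 2-fold, which left 3 members. With 1 count as the minimum, 7302 of 19207 genes (38.0%) differed by more than 2-fold instead of 4257, because genes of low counts entered. The other settings gave 2875 to 4267 such genes, the fewest after the GC content and length adjustment. With union exons, the mean level per length was 1010 CPM per kilobase for Dusp1, 743 for Btg2, 569 for Zfp36 and 543 for Ier2. The order of the means stayed the same. Dusp1 then came closer to Btg2, and Zfp36 to Ier2, so the separation of these neighbours depends on the length used. The coefficient of variation was 0.479 with size factors of either kind, 0.470 with DESeq2 dispersions and 0.550 without a filter on low counts. Leaving out each library gave summed levels of 7928 and 10085 CPM, which with 2 libraries says nothing about stability. The remaining values of the members kept their direction and their side of 2-fold. Precision is limited by 2 mice more than by depth, since the lowest count of a member was 82.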

Other observations

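Some partner genes of the members, named after their values were seen, differed in CPM between the 2 libraries by more than Dusp2 (Mapkapk2 and Khsrp) or nearly as much (Mapk13). Mapkapk2, which encodes the p38-activated kinase MK2 that phosphorylates TTP, had 4114 counts or 176 CPM in library 1 and 437 counts or 10.6 CPM in library 2, a log2 ratio of -4.05. Khsrp, which encodes a decay-promoting reader of AU-rich elements, had 466 counts or 19.9 CPM and 63 counts or 1.53 CPM, a log2 ratio of -3.70. Mapk13, which encodes p38 delta, had 97 counts or 4.15 CPM in library 1 and 1689 counts or 41.1 CPM in library 2, a log2 ratio of 3.31. After the adjustment for GC content and length these ratios were -3.32, -2.13 and 3.10. Dusp2 was at -3.17 on that scale, so Khsrp then differed by less than Dusp2. Neutrophil markers were higher in library 2, and their part in these differences was not tested.

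Among the other mRNAs known as TTP targets, also named after their values were seen, Plk3 stood at 116 CPM in library 1 and at 22.7 in library 2, Il6 had 4.32 and 13.1 CPM, and Cxcl2 had 22.6 and 64.6 CPM. Dusp5, another phosphatase of ERK, had 14.5 and 2.09 CPM.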
